A study of Nannospalax ehrenbergi and Mus musculus with 14 samples.

Results

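The miR-181 microRNA family was followed in tumor and in muscle of *Spalax*, the blind mole rat, and of mice after an injection of the carcinogen 3-methylcholanthrene (3MCA). Its members were taken by name, as every row of the deposited microRNA tables whose name starts with miR-181. There were 10 such rows among 1326, namely 4 5p arms and 6 3p arms, and the rule used no measured value.

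A microRNA gene is transcribed as a hairpin, and a 5p and a 3p arm are cut from its sides. As a rule one arm is kept to guide the silencing of matching mRNAs, and the other is degraded. In this family the 5p arm is the usual guide arm. The miR-181 microRNAs are best known from lymphocytes, where miR-181a tunes how sensitive developing T cells are to antigen. They are also known from muscle, where miR-181 rises as muscle cells differentiate.

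The 14 libraries were made from the injected side (IS) and the uninjected side (UIS) of the neck of 4 *Spalax* and 3 C57BL/6 mice. Each *Spalax* group held 2 libraries and each mouse group 3. The *Spalax* named Sp600 and Sp976 received 1 mg of 3MCA, and their granulomas, benign growths, were taken 14 and 16 months later. Sp2240 and Sp2230 received the same dose, and their fibrosarcomas, malignant growths, were taken after 18 and 30 months. The mice M512, M1023 and M1019, aged 3 to 4 months, received 200 µg, bore fibrosarcomas and were sampled 11, 12 and 14 weeks later. The mice and Sp2230 were male, and the other 3 *Spalax* were female. The *Spalax* were caught in the wild and aged about 2 years or at least 10 years, and which animal had which age was not given. The UIS came from the same treated animals, so no library is from an untreated animal. One mouse UIS library carries an animal number that matches no labelled mouse. It was kept in its group but not paired, which left 6 animals with both sides, namely the 4 *Spalax* and M512 and M1023. Species, dose, delay, age and, in part, sex changed together, so their parts in a difference between *Spalax* and mice cannot be told apart.

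All libraries were labelled muscle tissue, and the muscle microRNAs were abundant at the UIS and nearly absent at the IS. The 6 microRNAs of a skeletal muscle list took 27.6% to 37.3% of the reads of the 7 UIS libraries and 0.00953% to 3.92% of the reads of the 7 IS libraries. A fibroblast list of 3 took 0.231% to 1.00% at the UIS and 3.02% to 11.1% at the IS. A leukocyte list of 7 took 0.0729% to 0.150% and 0.437% to 2.55%. These shares moved with every contrast between IS and UIS below, and their part in it was not tested. In such bulk tissue, fewer cells of a type and less RNA per cell cannot be told apart.

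In the mouse genome the family comes from 6 hairpins in 3 pairs. They are shown because a 5p row of the tables joins what different hairpins yield, while the 3p rows keep the hairpins apart. The capitals mark 2 runs of 8 bases that all 6 hairpins hold (GRCm38 with the GENCODE M21 annotation, 5′ to 3′, written as DNA). The first run holds the seed of the 5p arm, the bases that pair with targets.
Mir181a-1, chr1:137966455-137966541, plus strand: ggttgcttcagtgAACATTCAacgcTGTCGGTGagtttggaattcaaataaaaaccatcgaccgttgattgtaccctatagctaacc
Mir181b-1, chr1:137966639-137966718, plus strand: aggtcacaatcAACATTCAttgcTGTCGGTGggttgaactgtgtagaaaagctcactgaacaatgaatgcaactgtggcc
Mir181a-2, chr2:38852735-38852810, plus strand: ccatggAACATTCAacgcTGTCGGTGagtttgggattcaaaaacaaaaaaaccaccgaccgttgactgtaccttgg
Mir181b-2, chr2:38853830-38853918, plus strand: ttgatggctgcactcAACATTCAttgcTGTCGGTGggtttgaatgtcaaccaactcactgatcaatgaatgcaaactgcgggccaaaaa
Mir181c, chr8:84178873-84178961, minus strand: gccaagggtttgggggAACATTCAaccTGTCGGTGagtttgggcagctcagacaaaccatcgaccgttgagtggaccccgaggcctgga
Mir181d, chr8:84178716-84178787, minus strand: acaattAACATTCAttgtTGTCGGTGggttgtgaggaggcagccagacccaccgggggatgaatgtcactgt

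Both runs together, read on the transcribed strand, were found in these 6 of 2201 mouse microRNA hairpins (0.273%). Alone, AACATTCA was found in 8 (0.363%) and TGTCGGTG in 7 (0.318%). The hairpins Mir181a-1 and Mir181a-2 share an unbroken run of 28 bases in their 5p sides, and Mir181b-1 and Mir181b-2 one of 26. The longest runs they share in their 3p sides are 10 and 12 bases. The row miR-181a-5p thus stands for both miR-181a hairpins, whereas miR-181a-1-3p and miR-181a-2-3p have a row each, and likewise for miR-181b. Mir181a-1 and Mir181c share 17 bases in their 3p sides. How reads that match several hairpins were assigned is not given in the sources used here, and neither is how mismatches of *Spalax* reads to the mouse names were handled.

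Mir181a-1 and Mir181b-1 lie 97 bp apart on chromosome 1, in introns of the noncoding gene Gm4258 on the same strand and of Gm26936 on the other strand. Mir181b-1 also lies in an exon of the noncoding gene A430106G13Rik, which Mir181a-1 overlaps in part. Mir181a-2 and Mir181b-2 lie 1.02 kb apart on chromosome 2, in an intron of Nr6a1, a nuclear receptor gene on the opposite strand. Mir181b-2 also overlaps an exon of Gm44144, on that opposite strand. Mir181c and Mir181d lie 85 bp apart on chromosome 8, in an intron of Nanos3 on the same strand.

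The family took 1.42% to 2.09% of the microRNA reads at the UIS and 2.96% to 6.64% at the IS, with no overlap between the sides. Among the reads outside the muscle list it took 2.19% to 2.97% and 3.04% to 6.64%. As a share of all reads the median microRNA tested rose too. Its log2 change was 2.02 in granuloma, 1.44 in *Spalax* fibrosarcoma and 2.76 in mice. The higher share at the IS is thus not read as particular to the family. miR-181a-5p ranked between 4 and 15 among the microRNAs of a library. It made up 85.6% to 88.8% of the family's 5p reads at the mouse UIS and 84.3% to 87.9% at the mouse IS. In *Spalax* it made up 93.4% to 95.1% at the UIS and 90.7% to 92.7% at the IS. Over all libraries miR-181b-5p held 3.83% to 12.8% of the 5p reads, miR-181c-5p 0.640% to 2.53% and miR-181d-5p 0.121% to 0.761%.

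The 3p arms were far rarer, with 0.0996% to 0.308% of the family's reads at the UIS and 0.477% to 1.14% at the IS. Most of these were miR-181a-1-3p and miR-181c-3p. miR-181a-2-3p, miR-181b-1-3p and miR-181b-2-3p had at most 22, 67 and 18 reads in a library. miR-181d-3p had at most 3 reads and passed the filter in no comparison. Reads carry no molecular identifiers, so intervals and limits on shares of reads cover counting error only.

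Levels below are normalized counts, the deposited values, in which each library's reads were divided by its own size factor. An arm was called when its Benjamini-Hochberg adjusted p was under 0.05 in limma, fitted over all microRNAs that reached a normalized count of 10 in 2 or more libraries, or 3 in the mouse table. Fold changes are on the log2(value + 1) scale. The libraries of a group came from separate animals. An arm that reached 10 in no library of some group of a contrast passed the filter through the groups where it was high, so its change is given as values, with no test. Where a count is of arms that reached 10 in all groups, the share of all microRNAs called beside it is not limited in this way. That share covers every microRNA that passed the filter, also those high in some groups alone, so count and share are not over like sets.

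**Figure D1:**
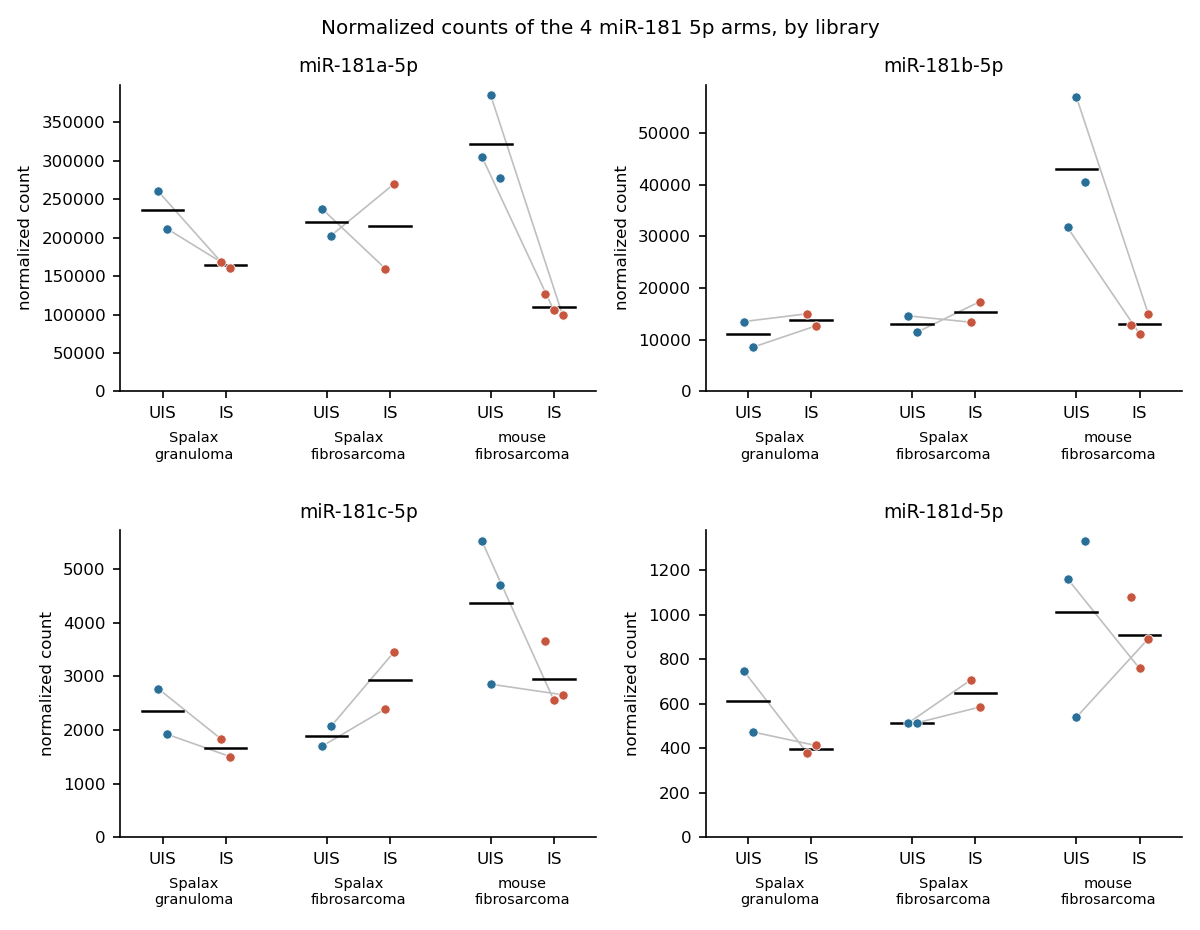
Normalized counts of the 4 5p arms of the miR-181 family (vertical axis) in every library by group (horizontal axis). Points are libraries (blue UIS, red IS), bars are group means and grey lines join both sides of an animal, with mice on the scale of the mouse table and *Spalax* on that of the *Spalax* table. For miR-181a-5p the 3 mouse IS libraries lie between 98936 and 126715, all below the 3 mouse UIS libraries.

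At the mouse fibrosarcoma IS, 3 of the 6 arms that reached 10 at both sides were called, 1 higher and 2 lower, against 57.8% of the 547 microRNAs tested. miR-181a-5p had 305449, 385110 and 277306 normalized counts at the UIS of M1023, M512 and the unpaired mouse. It had 126715, 105395 and 98936 at the IS of M1019, M1023 and M512. All IS libraries stood below all UIS libraries, and the group means were 322622 ± 55916 and 110349 ± 14537 (SD, n = 3). The log2 fold change was -1.54 ± 0.25 (SE, adjusted p = 0.00344, limma).

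miR-181b-5p, which has the same seed, had 31699, 56924 and 40549 normalized counts at the mouse UIS and 12937, 11149 and 14947 at the IS. The sides again did not overlap, with a log2 fold change of -1.69 ± 0.31 (SE, adjusted p = 0.00530, limma). Within animals, miR-181a-5p changed by -1.54 in M1023 and -1.96 in M512 on the log2 scale, and miR-181b-5p by -1.51 and -1.93.

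These falls are relative to the deposited size factors. Scaled to library totals instead, the median change of all microRNAs moved from 0.21 to 2.76, and the log2 fold changes turned to 0.84 for miR-181a-5p (adjusted p = 0.0397) and 0.69 for miR-181b-5p (adjusted p = 0.109, both limma). Relative to the median of all microRNAs, miR-181a-5p was at -1.76 with the deposited factors and -1.92 with totals, and miR-181b-5p at -1.91 and -2.07. As a share of the library, miR-181a-5p was 1.62% ± 0.178 at the mouse UIS and 2.94% ± 0.618 at the IS (SD, n = 3). The muscle microRNAs held 27.6% to 29.7% of the mouse UIS reads and at most 3.92% of the IS reads. Among the reads outside the muscle list, miR-181a-5p held 1.98% to 2.54% at the mouse UIS and 2.65% to 3.65% at the IS. The part of the muscle reads in the turn was not tested.

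**Figure D2:**
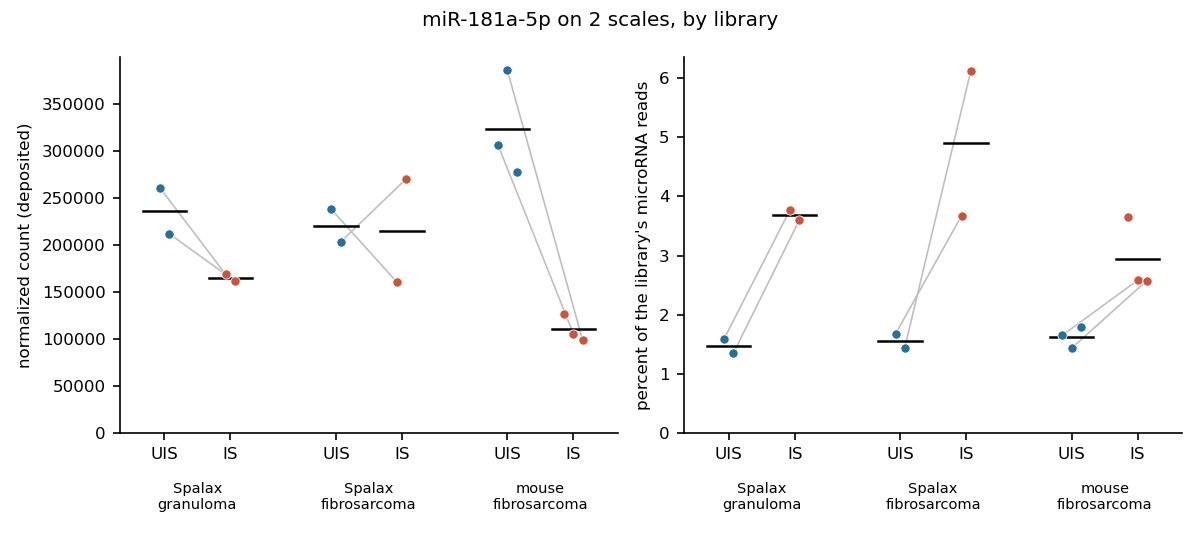
Level of miR-181a-5p in every library by group, as the deposited normalized count in one panel and as percent of the library's reads in the other. Points are libraries (blue UIS, red IS), bars are group means and grey lines join both sides of an animal. In mice the normalized count was lower at the IS, with means of 110349 and 322622, while the percent of reads was higher, with means of 2.94% and 1.62%.

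The remaining 5p arms of the mice were not called. miR-181c-5p had 2852 to 5517 normalized counts at the UIS and 2552 to 3652 at the IS. Its log2 fold change was -0.53 and that of miR-181d-5p -0.063. Both turned positive with totals, at 1.86 and 2.32.

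The 3p arms of the mice split by hairpin. From chromosome 1, miR-181a-1-3p had 224, 261 and 277 normalized counts at the UIS of M1023, M512 and the unpaired mouse, and 543, 603 and 775 at the IS of M1019, M1023 and M512. miR-181b-1-3p had 6.86, 3.84 and 2.71 at the UIS and 24.3, 18.1 and 26.7 at the IS. In neither arm did the sides overlap. miR-181a-1-3p rose, by a log2 fold change of 1.32 ± 0.34 (SE, adjusted p = 0.0153, limma). miR-181b-1-3p, with 2 to 5 reads at the UIS and 24 to 67 at the IS, reached 10 at the IS alone.

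From chromosome 2, miR-181a-2-3p had 14, 22 and 14 reads at the mouse UIS and 0, 0 and 4 at the IS, in the same order of animals. miR-181b-2-3p had 17, 18 and 12 reads at the UIS and 5, 6 and 8 at the IS. The corresponding normalized counts were 19.0 to 42.3 and 0 to 4.44 for miR-181a-2-3p, and 16.3 to 34.6 and 1.81 to 8.89 for miR-181b-2-3p. In both arms all IS libraries lay below all UIS libraries, and both reached 10 at the UIS alone.

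With the mouse number as a replicate block, miR-181a-5p and miR-181b-5p stayed called, with adjusted p-values of 0.00649 and 0.0134 in limma, and miR-181a-1-3p did not (adjusted p = 0.0914). It also lost its call without the UIS library of M1023 (adjusted p = 0.0676). Its direction was the same with totals.

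The median log2 fold change of the 6 arms was -0.29, and that of all microRNAs tested 0.21.

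At the *Spalax* fibrosarcoma IS, 2 of the 6 arms that reached 10 at both sides were called, both higher, against 37.4% of the 447 microRNAs tested. miR-181a-1-3p had 351 and 490 normalized counts at the UIS of Sp2230 and Sp2240, and 1615 and 1059 at their IS. miR-181c-3p had 116 and 158 at the UIS and 401 and 330 at the IS. In both arms the lower IS library stood above the higher UIS library.

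The log2 fold changes were 1.65 ± 0.42 (SE) for miR-181a-1-3p (adjusted p = 0.0176) and 1.42 ± 0.45 for miR-181c-3p (adjusted p = 0.0405, both limma). With the animal as a replicate block, miR-181c-3p was not called (adjusted p = 0.0990). miR-181a-1-3p lost its call with edgeR (adjusted p = 0.0539) and without the UIS or IS library of Sp2230 or the UIS library of Sp2240 (adjusted p of 0.0522 to 0.111). miR-181c-3p lost it with edgeR (adjusted p = 0.103) and without any 1 of the 4 libraries (adjusted p of 0.0538 to 0.206).

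The 5p arms of the *Spalax* fibrosarcomas were not called. miR-181a-5p had 237506 and 202781 normalized counts at the UIS of Sp2230 and Sp2240, and 159828 and 270212 at their IS. It was lower at the IS of one animal and higher at the IS of the other, by log2 changes of -0.57 and 0.41, and the fitted log2 fold change was -0.079 ± 0.31 (SE, adjusted p = 0.871, limma). miR-181b-5p had 14625 and 11426 at the UIS and 13382 and 17369 at the IS, with overlap and a log2 fold change of 0.24. miR-181c-5p, at 0.62, had 1698 and 2067 at the UIS and 2390 and 3454 at the IS, without overlap but with an adjusted p of 0.262. miR-181d-5p was at 0.33. The median over the 6 arms was 0.47, and that of all microRNAs tested -0.23.

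At the granuloma IS, 1 of the 6 arms that reached 10 at both sides was called, against 48.3% of the 447 microRNAs tested. The called arm was again miR-181a-1-3p. It had 592 and 480 normalized counts at the UIS of Sp600 and Sp976, and 1231 and 1363 at their IS, so that both IS libraries stood above both UIS libraries. The log2 fold change was 1.28 ± 0.42 (SE, adjusted p = 0.0376, limma). It was not called with the replicate block (adjusted p = 0.0881), with edgeR (adjusted p = 0.0614), with size factors that leave out the muscle microRNAs (adjusted p = 0.0510), or without any 1 of the 4 granuloma libraries (adjusted p of 0.0953 to 0.161).

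The 5p arms of the granulomas were not called. miR-181a-5p had 260519 and 211799 normalized counts at the UIS and 168320 and 161123 at the IS of Sp600 and Sp976. Both IS libraries lay below both UIS libraries, but the log2 fold change of -0.51 ± 0.31 (SE) had an adjusted p of 0.212 in limma. Scaled to totals, it turned to 1.33, with the median of all microRNAs moving from 0.13 to 2.02. Relative to that median it was at -0.64 and -0.69. miR-181b-5p had 13510 and 8537 at the UIS and 15014 and 12664 at the IS, which overlapped, with a log2 fold change of 0.36. miR-181c-5p and miR-181d-5p were at -0.48 and -0.59, and with totals at 1.37 and 1.25. The median over the 6 arms was -0.13, and that of all microRNAs tested 0.13.

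**Figure D3:**
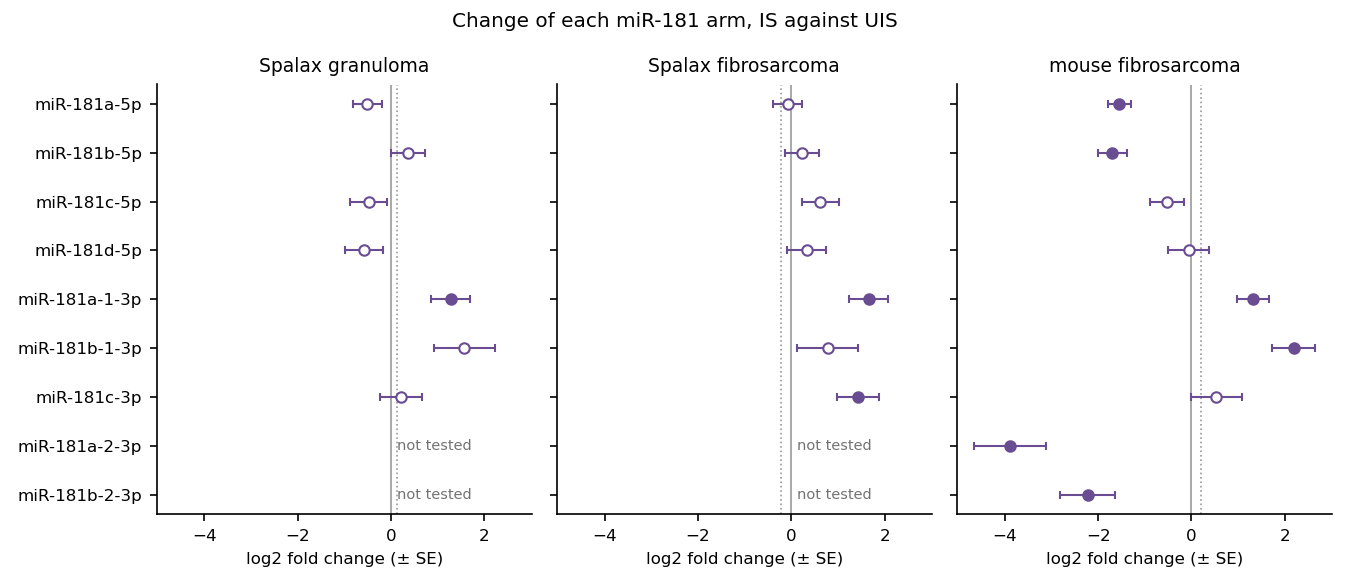
Log2 fold change of IS over UIS (horizontal axis) for 9 arms of the miR-181 family in the granuloma, *Spalax* fibrosarcoma and mouse fibrosarcoma contrasts. Points are limma estimates on the log2(value + 1) scale with bars of 1 SE, filled where called, and the dotted line is the median of all microRNAs tested. miR-181b-1-3p in all panels and both arms of chromosome 2 in mice reached 10 at a single side. They passed the filter through that side, so their points and fill are not read as a test. miR-181a-1-3p lies above 0 and is filled in all 3 contrasts, at 1.28, 1.65 and 1.32, while miR-181a-5p is filled in mice alone, at -1.54.

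In *Spalax* the 3p arms that bear the names of the mouse chromosome 2 hairpins were too rare to pass the filter. The hairpins of *Spalax* and their places in its genome were not examined. miR-181a-2-3p had 5, 7, 1 and 7 reads at the UIS of Sp2230, Sp2240, Sp600 and Sp976, and 1, 0, 0 and 0 at the IS. miR-181b-2-3p had 3, 5, 3 and 1 reads at the UIS and 0 at the IS of all 4 animals. At the IS, 3 reads per library correspond to a mean of 3.77 normalized counts in granuloma and 4.07 in fibrosarcoma. The UIS means of miR-181b-2-3p were 2.76 and 4.50, so a fall of this arm was not detectable at this depth in granuloma, and the fibrosarcoma mean was close to the limit. Those of miR-181a-2-3p were 5.16 and 6.78. miR-181b-1-3p, whose mouse hairpin lies on chromosome 1, had 4, 9, 5 and 4 reads at the UIS and 33, 4, 13 and 19 at the IS. It reached 10 at the IS alone.

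Shares within the family do not depend on the scaling between libraries, so the arms were also compared as shares of reads, within each of the 6 animals with both sides. The test was an exact two-sided permutation test by sign flips, whose smallest possible p with 6 pairs is 0.03125. The shares of miR-181a-5p among the 5p reads and of the 3p arms among all reads were planned. Both moved the same way in 6 of 6 animals and gave that smallest p (p = 0.03125, adjusted p = 0.03125 over the 6 shares computed, exact permutation test). The other 4 were added after the levels had been seen and restate them, so they are given as descriptions.

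miR-181a-5p made up less of the 5p reads at the IS, by -2.21 ± 1.10 percentage points (SD, n = 6). The mean share was 94.5% at the UIS and 91.2% at the IS of granuloma animals, 93.5% and 91.7% with *Spalax* fibrosarcoma, and 87.0% and 86.6% in mice. The mouse means use all 3 libraries a side, whose ranges overlapped. Comparing all libraries without pairing gave a difference of -1.59 points (p = 0.397, exact permutation test).

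The 3p arms made up more of the family's reads at the IS, by 0.619 ± 0.297 percentage points (SD, n = 6). For miR-181a alone, the 3p share of reads was 0.0788% to 0.107% at the mouse UIS and 0.427% to 0.781% at the mouse IS. In *Spalax* it was 0.150% to 0.245% at the UIS and 0.390% to 1.00% at the IS. The sides did not overlap in either species, and the mean difference was 0.549 ± 0.240 points (SD, n = 6). It was smallest in Sp2240, at 0.146 points.

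For miR-181c, from a single hairpin, the 3p share was the highest in the family. It was 3.45% to 6.64% at the mouse UIS and 7.93% to 13.3% at the mouse IS, and 6.37% to 7.92% at the *Spalax* UIS and 8.72% to 14.6% at the *Spalax* IS. The mean difference within animals was 5.31 ± 3.50 points (SD, n = 6), from 1.60 points in Sp2240 to 9.90 in M512.

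**Figure D4:**
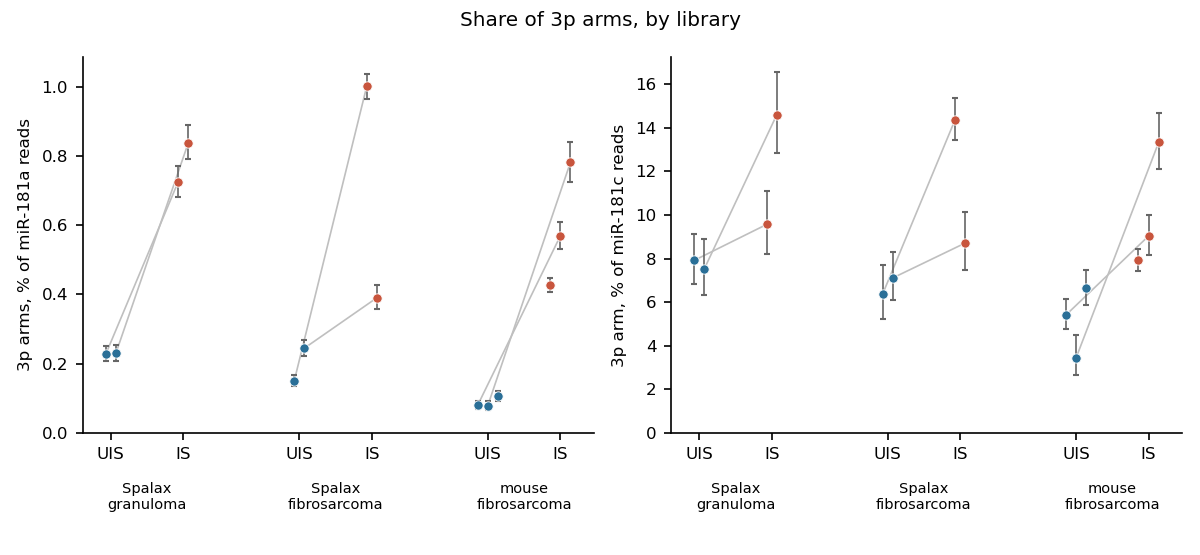
Share of 3p reads among the reads of miR-181a (one panel) and of miR-181c (the other), in percent of reads, for every library by group. Points are libraries (blue UIS, red IS) with Wilson 95% intervals, which cover counting error only, and grey lines join both sides of an animal. The share is higher at the IS in both panels in each of the 6 paired animals, for miR-181a at 0.390% to 1.00% against 0.0788% to 0.245% at the UIS. For miR-181c the intervals of the sides overlap in Sp2240 and Sp600.

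The 3p reads of mice also tell the hairpins of chromosome 2 from those of chromosome 1. In *Spalax* they are told apart by the mouse names alone. Mir181a-2 yielded 6.42% to 13.9% of the miR-181a 3p reads at the mouse UIS. At the mouse IS it yielded 0 of 1497 reads in M1019 and 0 of 834 in M1023, which allow shares of up to 0.200% and 0.360%, and 4 of 701 in M512, or 0.571% (Wilson 95% interval 0.222% to 1.46%). In *Spalax* the reads named miR-181a-2-3p made up 0.239% to 1.82% at the UIS. At the *Spalax* IS they were 1 of 2968 reads in Sp2230 and 0 of 488, 986 and 1076 in Sp2240, Sp600 and Sp976. These zeros allow up to 0.615%, 0.304% and 0.279%. The mean difference was -4.41 ± 5.14 percentage points (SD, n = 6). It ranged from -0.239 points in Sp600, which had a single such read at the UIS and none of 986 at the IS, to -13.4 in M512. For Sp600 the limit of 0.304% at the IS lies above the UIS share of 0.239%, so no direction can be read there. In Sp2240 the Wilson 95% intervals of the sides overlapped, with 0.736% to 3.09% at the UIS and up to 0.781% at the IS.

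Mir181b-2 yielded most of the miR-181b 3p reads in mouse muscle and few in mouse tumors. The mouse UIS had 17 of 22, 18 of 20 and 12 of 14 reads from it, or 77.3% to 90.0%. The mouse IS had 5 of 72, 6 of 31 and 8 of 32, or 6.94% to 25.0%. In *Spalax* the UIS had 3 of 7, 5 of 14, 3 of 8 and 1 of 5, or 20% to 42.9%, and the IS had 0 of 33, 0 of 4, 0 of 13 and 0 of 19, which allow up to 9.09%, 75.0%, 23.1% and 15.8%. The mean difference was -43.2 ± 16.2 points (SD, n = 6). For Sp2240 the limit of 75.0% lies above its UIS share of 35.7%, so no direction can be read there. With 4 to 72 reads a library, single shares are imprecise, as the Wilson intervals in the plot of the chromosome 2 share show. The tables do not tell from which hairpin the 5p reads came.

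**Figure D5:**
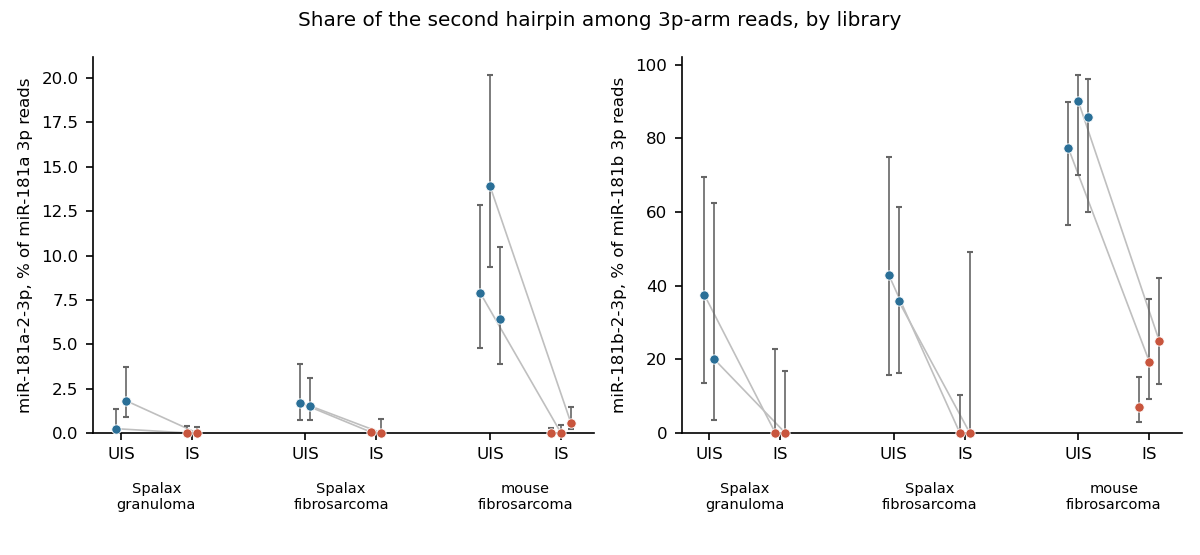
Share of the second hairpin (Mir181a-2 or Mir181b-2, on mouse chromosome 2) among the 3p reads of miR-181a (one panel) and miR-181b (the other), in percent, for every library by group. *Spalax* reads are assigned by the mouse names. Points are libraries (blue UIS, red IS) with Wilson 95% intervals, which cover counting error only, and grey lines join both sides of an animal. In mice the miR-181b share is 77.3% to 90.0% at the UIS and 6.94% to 25.0% at the IS, and in *Spalax* it is 0 in all 4 IS libraries.

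Granuloma and *Spalax* fibrosarcoma were then set against each other. At the IS, 0 of the 7 arms tested were called, against 18.8% of 447 microRNAs. At the UIS, 0 arms were called, against 0% of the microRNAs, where limma, edgeR and DESeq2 each called 0 and 5 microRNAs had an unadjusted p under 0.05 in limma. For the change from UIS to IS, 0 arms were called, against 3.8%. In the UIS and change contrasts miR-181b-1-3p did not reach 10 in all groups. None of the 7 arms had an unadjusted p under 0.05 in any of these contrasts. The lowest adjusted p at the IS was that of miR-181c-5p, with 2390 and 3454 normalized counts in fibrosarcoma and 1828 and 1504 in granuloma. The ranges did not overlap, and the log2 difference was -0.79 ± 0.39 (SE, adjusted p = 0.249, limma).

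For comparison between species, mice were taken on the scale of the *Spalax* table, whose size factors cover both and which holds 5 of the mouse libraries. On that scale the mean normalized count of miR-181a-5p was highest at the mouse UIS, at 271520 ± 58100 (SD, n = 2). The granuloma UIS followed with 236159 ± 34451, the *Spalax* fibrosarcoma UIS with 220144 ± 24554, the *Spalax* fibrosarcoma IS with 215020 ± 78054 and the granuloma IS with 164721 ± 5089 (n = 2 each). The mouse IS was lowest, at 94105 ± 10785 (n = 3). Each group overlapped the next in this order except that the mouse IS lay apart from the granuloma IS.

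The order of miR-181b-5p was different, with the mouse UIS at 35061 ± 15763 and every other group between 11024 and 15376. The mouse UIS did not overlap the group next to it, and the other neighbours overlapped. miR-181a-1-3p was highest at the IS of *Spalax*, with 1337 ± 394 in fibrosarcoma and 1297 ± 93.7 in granuloma, which overlapped, and lowest at the mouse UIS with 190 ± 30.7. miR-181c-5p ranged from 1666 to 3238 over the groups, and miR-181d-5p from 397 to 779, with overlap of all neighbours for miR-181c-5p.

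At the UIS, 2 of the 6 arms that reached 10 in all groups differed between the 4 *Spalax* and 2 mice, against 39.7% of 607 microRNAs. miR-181b-5p had 8537 to 14625 normalized counts in *Spalax* and 23914 and 46206 in M1023 and M512, a log2 difference of -1.50 ± 0.34 (SE, adjusted p = 0.00487, limma). miR-181a-1-3p had 351 to 592 in *Spalax* and 169 and 212 in mice, a difference of 1.31 ± 0.33 (adjusted p = 0.0101). Neither range overlapped. miR-181b-2-3p, which reached 10 in mice alone, had 1.27 to 5.38 in *Spalax*, or 1 to 5 reads, and 17.6 and 28.1 in mice. The call of miR-181b-5p was lost without the UIS library of M512 (adjusted p = 0.0827), and that of miR-181a-1-3p without the UIS library of M1023 (adjusted p = 0.0875).

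At the fibrosarcoma IS, 2 of the 7 arms that reached 10 in both groups differed between 2 *Spalax* and 3 mice, against 53.9% of the microRNAs. miR-181a-5p had 159828 and 270212 normalized counts in *Spalax* and 87651 to 106556 in mice, a log2 difference of 1.15 ± 0.28 (SE, adjusted p = 0.00507, limma). miR-181a-1-3p had 1615 and 1059 in *Spalax* and 457 to 690 in mice, a difference of 1.27 ± 0.35 (adjusted p = 0.0107). Neither range overlapped. Scaled to totals, neither was called (0.71, adjusted p = 0.0653, and 0.84, adjusted p = 0.0738). miR-181a-5p also lost its call without the IS library of Sp2240 (adjusted p = 0.0518), and miR-181a-1-3p without the IS library of Sp2230 (adjusted p = 0.0867). miR-181b-2-3p had 0 reads in both *Spalax* libraries and 5, 6 and 8 in the mice, or 1.52, 3.61 and 7.92 normalized counts. In 2 of 3 mice this is below the 4.07 that 3 reads per *Spalax* library correspond to, so a difference was not detectable at this depth.

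The change from UIS to IS was compared between species in 2 contrasts added after the separate results had been seen. The contrasts use the same mouse libraries. Between *Spalax* and mouse fibrosarcoma, 2 of the 6 arms that reached 10 in all groups differed, against 26% of 607 microRNAs. The change of miR-181a-5p was higher in *Spalax* by 1.44 ± 0.41 (SE, log2, adjusted p = 0.0290, limma), and that of miR-181b-5p by 1.83 ± 0.53 (adjusted p = 0.0293). The within-animal log2 changes of miR-181b-5p were -0.13 and 0.60 in Sp2230 and Sp2240, and -1.51 and -1.93 in M1023 and M512. Between granuloma and mouse fibrosarcoma, 1 of 6 arms differed, against 14.7% of the microRNAs. This was miR-181b-5p, with 1.95 ± 0.53 (adjusted p = 0.0349), and changes of 0.15 and 0.57 in Sp600 and Sp976. For miR-181a-5p this difference was 1.01 ± 0.41 (adjusted p = 0.135). With the animal as a replicate block, over the 6 animals with both sides, the difference of miR-181b-5p from *Spalax* fibrosarcoma stayed called (1.82, adjusted p = 0.0485). That of miR-181a-5p (1.53, adjusted p = 0.0771) and that of miR-181b-5p from granuloma (1.94, adjusted p = 0.0546) were not.

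All of these differences in change lost their call with edgeR (adjusted p = 0.0779, 0.0662 and 0.122, in the same order) and when scaled to totals, where they were 0.70, 1.09 and 1.37 with adjusted p-values of 0.279, 0.110 and 0.0603. They also lost it without the IS library of M1023 or the UIS library of M512. In addition, the differences from *Spalax* fibrosarcoma lost it without the UIS library of Sp2230 or either library of Sp2240, and the difference from granuloma without the IS library of Sp600 or either library of Sp976. Without 1 library they ranged from 1.06 to 1.82, 1.35 to 2.30 and 1.48 to 2.43.

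Other microRNAs known from the settings of the family were counted by list. Of 9 microRNAs of lymphocyte development and activation, 4 rose and 1 fell in granuloma, 6 rose in *Spalax* fibrosarcoma and 3 rose in mice. Their median log2 fold changes were 2.17, 2.83 and 1.35. Of all 447 microRNAs tested, 114 rose and 102 fell in granuloma, and 68 rose and 99 fell in *Spalax* fibrosarcoma. In mice 176 rose and 140 fell of 547 (57.8% called), so the list count of 3 is not above that share. The list member that fell in granuloma was miR-150-5p, known from mature lymphocytes (-2.05, adjusted p = 0.0154, limma). With totals no member of this list was called lower there. The members that rose include miR-223-3p, known from myeloid cells. The list took 0.284% to 0.403% of the UIS reads and 1.49% to 5.40% of the IS reads. Of 11 microRNAs of differentiating muscle, 10 fell and 1 rose in granuloma, 10 fell in *Spalax* fibrosarcoma and 5 fell and 1 rose in mice. Their medians were -9.22, -8.86 and -3.82. This list holds all 6 microRNAs of the skeletal muscle list. The member that rose was miR-214-3p, which is also on the fibroblast list. The medians over all microRNAs tested were 0.13, -0.23 and 0.21. With totals the list medians were 4.01, 4.52 and 3.73 for lymphocyte development and -7.56, -7.30 and -1.70 for differentiating muscle. These medians did not turn, but calls changed. With totals 8 of the 9 lymphocyte microRNAs were called higher and none lower in each contrast. There the medians of all microRNAs were 2.02, 1.44 and 2.76.

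Among the cell type lists, the 6 muscle microRNAs fell in both *Spalax* contrasts, and 2 of them fell in mice. Over all microRNAs tested, 48.3%, 37.4% and 57.8% were called in granuloma, *Spalax* fibrosarcoma and mice. The 7 leukocyte microRNAs all belong to the lymphocyte list, which adds only miR-17-5p and miR-92a-3p. Of these 7, 4 rose and 1 fell in granuloma, 4 rose in *Spalax* fibrosarcoma and 3 rose in mice. With totals 6 of the 7 were called higher and none lower in each contrast. The 3 fibroblast microRNAs rose in granuloma and in mice, and none was called in *Spalax* fibrosarcoma, where their median was 0.80. With totals all 3 were called higher in *Spalax* fibrosarcoma too, with a median of 2.49. Both endothelial microRNAs fell in all 3 contrasts with the deposited factors, with medians of -2.30, -2.36 and -2.31, but were called in none with totals, where the medians were -0.46, -0.68 and 0.070. The 2 red cell microRNAs were called in none, with medians of -0.62, -0.74 and -1.87 that turned to 1.23, 0.95 and 0.51 with totals. Of 6 epithelial microRNAs, 4, 4 and 3 passed the filter, and 1 rose in each *Spalax* contrast and none in mice. They took at most 0.00728% of a library. With totals, the medians of the muscle list stayed below 0 and those of the leukocyte, fibroblast and epithelial lists above 0 in all 3 contrasts.

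The microRNAs whose levels were most like those of miR-181a-5p differed between the species. Over the 8 *Spalax* libraries, the highest of 440 Pearson correlations outside the family were those of miR-1839-3p (0.966), miR-1839-5p (0.932), miR-218-1-3p (0.905), miR-374b-5p (0.869) and miR-598-3p (0.860). Over the 6 mouse libraries, the highest of 538 were those of miR-1843a-5p (0.998), miR-1843b-5p (0.997), miR-1843a-3p (0.992), miR-7a-1-3p (0.990) and miR-5113 (0.989). Within the family, miR-181b-5p was at 0.960 in mice and 0.206 in *Spalax*, and miR-181a-1-3p at -0.968 and -0.604. These are descriptions across libraries that share size factors and differ in their muscle reads.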

How the data were processed

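MicroRNA libraries of 14 samples (8 *Spalax*, 6 mouse) were deposited as 2 tables. The deposited values are signal, namely read counts that the authors divided by each library's own size factor (DESeq2 per the study's methods). The study names miRDeep for mapping, and the submitters' notes name GRCm38, TopHat 1.4.1, HTSeq and DESeq. In the columns whose reads were used, every value was a whole multiple of what 1 read is worth (100% whole, within 0.01 read), so reads were recovered. Libraries held 2034574 to 13982842 reads, and a count of 0 was taken to allow up to 3 reads. The *Spalax* table also holds 5 mouse libraries, and its factors rest on both species.

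Groups followed the labels. A mouse column named M1018 matched no labelled animal and was used as an unpaired UIS library. Libraries of a group differed by more than sampling noise (chi-square of at least 327.1 per degree of freedom).

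log2(value + 1) was tested with limma 3.58.1 (R 4.3.3) with a trend of the spread on the mean, over microRNAs that reached a value of 10 in 2 or more libraries (3 in mice). *Spalax*, mice and both (13 libraries) were fitted apart, because the tables were normalized separately. Each fit had a mean for each group. Benjamini-Hochberg adjusted p-values under 0.05 were called. The script was tested on simulated data. Shares of reads were compared within animals by exact sign flips (SciPy 1.17.1, Python 3.11.15), with Wilson 95% intervals. Alternatives were a pseudocount of 0.1, no filter, total scaling, size factors without the muscle microRNAs, edgeR 4.0.16 with TMM, DESeq2 1.42.0, a replicate block and leaving out each library. edgeR and DESeq2 used the recovered reads and called 212 and 234 microRNAs in granuloma, 163 and 196 in *Spalax* fibrosarcoma and 311 and 358 in mice.

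Same-numbered IS and UIS libraries come from the same animal, so they pair. Deviations from the group means correlated at 0.00405 and 0.0933 in the *Spalax* groups, and at -0.107 and 0.122 in M1023 and M512. The named genes were all rows that start with miR-181, the 5 microRNAs most correlated with miR-181a-5p in each species, and the microRNA lists. Of the lists, counts, medians and shares of reads are given, and miR-150-5p is the only member given with its own value. The rule also held microRNAs that share the seed, which were not searched because mature sequences were not used here. The members and lists were chosen with earlier results of these data known. Hairpins came from the GRCm38 genome with GENCODE M21.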

Additional observations from a re-analysis of the deposited data

Results flagged for a closer look

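The change from UIS to IS differed between *Spalax* and mice by a test of the difference itself for 2 members of the miR-181 family. For miR-181a-5p the log2 change in *Spalax* fibrosarcoma less that in mouse fibrosarcoma was 1.44 ± 0.41 (SE, adjusted p = 0.0290, limma). For miR-181b-5p it was 1.83 ± 0.53 (adjusted p = 0.0293). For miR-181b-5p the change in granuloma less that in mouse fibrosarcoma was 1.95 ± 0.53 (adjusted p = 0.0349). The contrasts share the mouse libraries and were added after the separate results had been seen. These differences were not called with edgeR or with total scaling. Leaving out single libraries, such as the IS library of M1023, also took the call from each of them. With the animal as a replicate block only the difference of 1.82 for miR-181b-5p from *Spalax* fibrosarcoma was called (adjusted p = 0.0485), and the others had adjusted p-values of 0.0771 and 0.0546.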

How the results depend on the processing

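With 2 or 3 libraries a group, leaving out a *Spalax* library leaves a lone one that is assumed to vary like the other groups, and depth limits the arms with few reads. Counts of arms called here are over all arms that passed the filter, also those that reached it at one side alone, in all 1 (granuloma), 2 (*Spalax* fibrosarcoma) and 6 (mouse). Calls of arms that reached it at one side alone are not read as tests. The share of all microRNAs called is not given beside each count, so these counts are not read as a result about the family. Of the log2 fold changes of single arms, 45 of 45 kept direction and call with a pseudocount of 0.1, 44 with no filter, 43 with size factors without the muscle microRNAs, 43 with DESeq2 and 38 with edgeR. With total scaling 18 of 43 did, 11 reversed, 8 gained a call and 6 lost it. That scaling divides by all reads, of which the muscle microRNAs took 27.6% to 37.3% at the UIS and at most 3.92% at the IS. Their part in these changes, and the causes of the changes below, were not tested.

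With total scaling, 7 arms were called in granuloma and 7 in *Spalax* fibrosarcoma. It called 1 between species at the fibrosarcoma IS and 0 in both differences of change between species. With totals the median of all microRNAs was itself 2.02 in granuloma and 1.44 in *Spalax* fibrosarcoma. Relative to it miR-181a-5p was at -0.69 and 0.17, so these counts are not read as a result about the family. The log2 values that reversed were, in granuloma, 1.33 for miR-181a-5p, 1.37 for miR-181c-5p and 1.25 for miR-181d-5p. In mice they were 0.84 for miR-181a-5p, 0.69 for miR-181b-5p, 1.86 for miR-181c-5p and 2.32 for miR-181d-5p, and in *Spalax* fibrosarcoma 1.61 for miR-181a-5p. Between species they were -0.023 for miR-181c-3p and -0.23 for miR-181c-5p at the IS and 0.047 for miR-181d-5p at the UIS. Over all microRNAs, total scaling called 32 for the change in granuloma less that in *Spalax* fibrosarcoma and 157 for granuloma less mouse.

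With edgeR and TMM, 0 arms were called in granuloma, in *Spalax* fibrosarcoma and in both differences of change between species, and 0 and 67 microRNAs in these differences for granuloma and for *Spalax* fibrosarcoma. miR-181c-3p at the UIS reversed to -0.00148. With DESeq2, miR-181a-5p in *Spalax* fibrosarcoma reversed to 0.046, and 61 microRNAs were called for the change in granuloma less that in *Spalax* fibrosarcoma and 50 for granuloma less mouse. These counts were 0 and 59 with a pseudocount of 0.1, and the first was 0 with no filter. Without a filter 3 arms were called in granuloma. Among them were miR-181a-2-3p and miR-181b-2-3p, with 0 reads at the IS, whose calls are not read as tests. Without the muscle microRNAs in the size factors, 0 arms were called in granuloma and 1 in *Spalax* fibrosarcoma.

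With the replicate block, 0 arms were called in granuloma, 1 in *Spalax* fibrosarcoma and 3 in mice, 5 microRNAs for the change in granuloma less that in *Spalax* fibrosarcoma, and miR-181d-5p in mice reversed to 0.056. For the change in granuloma and *Spalax* fibrosarcoma less that in mice, where the block was added after seeing the data, 0 and 1 arms were called. Of the single arms the block took the call from 7 and changed no other. Shares kept their direction as log2 ratios, and without pairing the difference of the miR-181a-5p share was -1.59 points (p = 0.397, exact permutation test).

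Without 1 library, the microRNAs called ranged from 128 to 174 in granuloma, 76 to 155 in *Spalax* fibrosarcoma and 189 to 289 in mice. They ranged from 31 to 87 between granuloma and *Spalax* fibrosarcoma at the IS and 0 to 35 for their change, and from 28 to 122 and 77 to 186 for the change in granuloma and *Spalax* fibrosarcoma less that in mice. The arms called ranged from 0 to 0, 0 to 1 and 3 to 5 in granuloma, *Spalax* fibrosarcoma and mice, from 1 to 4 between species at the UIS, and from 0 to 1 and 0 to 2 for the change in granuloma and *Spalax* fibrosarcoma less that in mice. The log2 values that reversed ranged from -0.094 to 0.51 for miR-181c-3p in granuloma and -0.46 to 0.30 for miR-181a-5p in *Spalax* fibrosarcoma. In mice they ranged from -0.022 to 0.83 for miR-181c-3p and -0.46 to 0.19 for miR-181d-5p. Between species they ranged from -0.56 to 0.96 for miR-181c-3p and -0.66 to 0.33 for miR-181d-5p at the UIS, and from -0.84 to 0.31 for miR-181a-2-3p and -0.058 to 0.47 for miR-181c-5p at the IS. Without 1 animal the share differences ranged from -2.48 to -1.97 points for miR-181a-5p, 0.552 to 0.709 for all 3p arms, 0.489 to 0.630 for the 3p arms of miR-181a, 4.39 to 6.05 for miR-181c, -5.25 to -2.63 for Mir181a-2 and -47.8 to -38.8 for Mir181b-2, where 5 pairs cannot give a p below 0.0625.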
